A study of Homo sapiens with 15 samples.

Results

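Matrix metalloproteinases, their inhibitors and urokinase were followed as mRNA across 15 RNA-seq libraries of metastatic breast cancer cells in which the RNA-binding protein RBM47 was switched on with doxycycline. The set holds 10 of the 23368 genes in the count table and is a list of names that were picked with earlier results of these data known: the proteases MMP1, MMP2, MMP3, MMP9, MMP13 and MMP14, the inhibitors TIMP1, TIMP2 and TIMP3, and PLAU, which encodes urokinase. Each library came from 1 of 3 lines, and each line is 1 clone grown from a single sorted cell. WT6 and WT10 cells carry wild type FLAG-RBM47 and MUT3 cells carry the frameshift mutant RBM47 I281fs, in every case in a doxycycline-inducible retroviral construct. The sample labels give MDA231 as the parent of all 3 clones, whereas the study's methods derive WT6 from CN34-BrM2 cells, and WT10 and MUT3 from the brain metastatic derivative of MDA231. The doses were 0 (untreated), 1, 2.5, 5 and 25 ng/ml in every clone. A single library stands for each combination and there were no replicates, so a change was judged by its trend over the 5 doses of a clone.

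Matrix metalloproteinases are zinc-dependent proteases that cut collagens and other matrix proteins. Most are secreted as inactive precursors, while MMP14 is anchored in the cell membrane and activates the precursor of MMP2. TIMPs are small secreted proteins that bind the active site of these enzymes and block it. Urokinase is a serine protease that turns plasminogen into plasmin, which degrades fibrin and can activate metalloproteinase precursors. Both systems are widely studied in tumor invasion.

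RNA carrying poly(A) was sequenced as pairs of 75-base reads, and values are normalized counts, that is reads on a gene divided by a DESeq size factor of the library. Between 14955172 and 44771871 reads fell on genes per library, and 3 reads were worth between 1.19 and 4.09 normalized counts, which covers counting error only. RBM47 itself stood between 73.8 and 258 in the untreated libraries and between 10425 and 22084 at 25 ng/ml, and in WT6 cells it was lower at 5 ng/ml (3966) than at 2.5 ng/ml (8094). With 5 ng/ml it was 949 in MUT3 and 8134 in WT10 cells, so that below the highest dose the mutant was induced less. Dose fits were also run with the RBM47 count in place of dose, and what became of the calls is given with the genes below. The part of unequal induction in the differences between the clones was not tested further. KRT8, an epithelial keratin, lay between 8159 and 31010 and VIM between 50755 and 104639 in all libraries. The epithelial gene CDH1 was low, at 0 to 19.9, and CDH2, like VIM a mesenchymal gene, reached at most 20.7. The endothelial genes CDH5 and PECAM1 stayed at or below 1.08 and 9.19. Of the leukocyte genes, PTPRC reached at most 6.18 and CD14 at most 73.5, while CD68 lay between 2090 and 5307. Of the fibroblast genes, DCN reached 190 to 735 in WT6 cells but at most 1.08 in the other clones. COL1A1 did not share this pattern, at 178 to 250 in WT6, 272 to 493 in WT10 and 198 to 282 in MUT3. PDGFRB was low in every clone, at most 24.9. The part of DCN in the clone differences was not tested.

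Promoter sequence of 4 of the 10 genes (MMP14, TIMP1, TIMP3 and PLAU) was held in RefSeq on GRCh38.p14. The 250 bases before the start of TIMP3, TIMP1 and the downstream start of PLAU are shown because these genes differed most between clones or moved most with dose. Capitals mark the GC box GGGCGG or its complement CCGCCC, searched on both strands, which 42.6% of the 35116 promoters in the table held in the same window.
TIMP3, chr22:32801455-32801704, plus strand: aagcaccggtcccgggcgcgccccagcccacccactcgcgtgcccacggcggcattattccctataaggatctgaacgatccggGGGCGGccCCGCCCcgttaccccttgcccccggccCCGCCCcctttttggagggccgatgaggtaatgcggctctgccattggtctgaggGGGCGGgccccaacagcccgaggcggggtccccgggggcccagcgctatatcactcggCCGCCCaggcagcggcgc
TIMP1, chrX:47582186-47582435, plus strand: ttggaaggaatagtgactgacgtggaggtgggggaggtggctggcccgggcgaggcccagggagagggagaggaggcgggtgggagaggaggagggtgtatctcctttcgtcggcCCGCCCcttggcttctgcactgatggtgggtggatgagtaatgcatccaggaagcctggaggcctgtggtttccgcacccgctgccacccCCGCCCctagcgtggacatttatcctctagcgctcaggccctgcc
PLAU, chr10:73910882-73911131, plus strand: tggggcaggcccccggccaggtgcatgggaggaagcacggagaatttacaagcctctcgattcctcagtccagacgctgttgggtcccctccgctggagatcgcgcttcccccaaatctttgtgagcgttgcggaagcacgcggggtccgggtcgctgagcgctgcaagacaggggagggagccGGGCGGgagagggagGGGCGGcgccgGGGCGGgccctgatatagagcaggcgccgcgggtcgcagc
TIMP3 held 5 such matches and 26 CG dinucleotides, the downstream start of PLAU 3 matches and 24, TIMP1 2 matches and 12, and MMP14, not printed here, 1 match and 7. The median promoter of the table held 11 CG dinucleotides in this window, so TIMP3 and the downstream start of PLAU lie above it, and TIMP1, with 12, just above. The upstream start of PLAU, from 73910360 to 73910609, held 0 matches and 4 CG dinucleotides. A match of letters is a description of the sequence and not a bound site.

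Levels are first given per kilobase of transcript, which allows genes to be set side by side. Of the 10 genes, 6 were well read in all clones, MMP9 and TIMP3 were close to 0 in WT6 only, and MMP2 and MMP13 were close to 0 everywhere. MMP1 took the first place in MUT3 cells, with a median of 18631 normalized counts per kb over the 5 libraries, ahead of TIMP1 at 3967 and MMP14 at 3586. In WT10 cells, which come from the same parental line as MUT3 by the study's methods, MMP14 (4481 per kb) led, and TIMP1 (3820), TIMP2 (3813), PLAU (3335) and MMP1 (2677) followed. The ranges of MMP14, TIMP1 and TIMP2 over the WT10 libraries overlapped, as did that of MMP1 with all of them, while PLAU stayed below these 3 in every library. In WT6 cells the inhibitors led, with TIMP1 at 6751 and TIMP2 at 2303 per kb, above MMP1 at 612, MMP14 at 478 and PLAU at 209. Summed per kb, the 3 TIMPs of the set stood at 7.05 to 18.8 times its 6 metalloproteinases in WT6 libraries, at 1.03 to 1.23 times in WT10 and at 0.294 to 0.457 times in MUT3, with no overlap between clones. In WT6 the ratio was 9.46, 8.85 and 7.05 up to 2.5 ng/ml, then 14.5 at 5 ng/ml and 18.8 at 25 ng/ml. At these upper doses genes with transcripts as short as that of TIMP1 rose in WT6 too, as given below. The sums hold no gene outside the set. MMP1 alone made up 77.0% to 85.3% of the metalloproteinase sum in MUT3 cells.

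**Figure D1:**
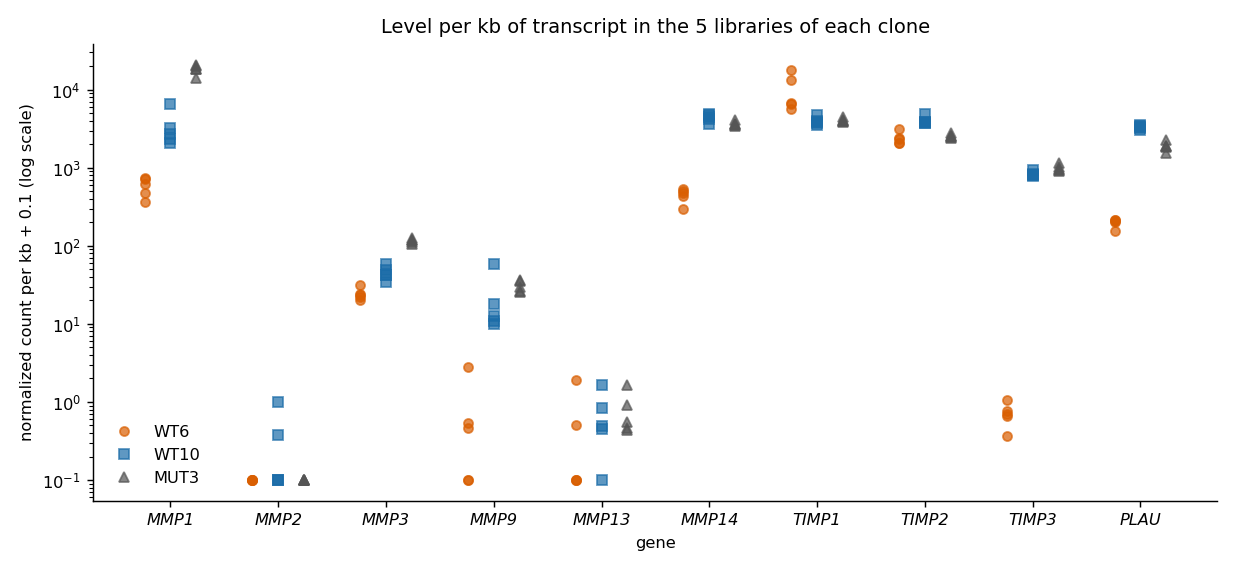
Level of each gene per kilobase of transcript (log axis, 0.1 added so that values of 0 can be drawn) in the 5 libraries of WT6 (circles), WT10 (squares) and MUT3 (triangles), 1 point per library. MMP1 lies highest in MUT3 and lowest in WT6, TIMP3 is close to 0 in WT6 alone, and MMP2 and MMP13 are close to 0 in all clones.

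MMP1, interstitial collagenase, cuts the fibrillar collagens. Its 10 exons span 102660132 to 102668891 of chromosome 11 (hg19, minus strand), in a cluster of metalloproteinase genes that also holds MMP3 and MMP13. Normalized counts of MMP1 in WT10 cells were, in order of dose, 4091, 4618, 5277, 6377 and 12925, so it went up at each step and ended 3.16 times above the untreated library. In MUT3 cells it went the other way, from 41122 through 39330, 36105 and 36722 to 28105, or 0.683 times the untreated level. In WT6 cells it was 716, 931, 1413, 1469 and 1206, with the top at 5 ng/ml. No library of one clone overlapped with a library of another, and the highest WT10 value remained below the lowest MUT3 value.

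For the change with dose, log2(normalized count + 1) of all 15 libraries entered a single limma fit with a slope per unit of log2(dose + 1) for each clone. The step from 0 to 1 ng/ml is 1 such unit. The fit covered 12644 genes that averaged 10 normalized counts or more within every clone, among them 6 of the 10 genes described here (MMP1, MMP3, MMP14, TIMP1, TIMP2 and PLAU), and adjusted p-values are Benjamini-Hochberg values over all 12644. In WT6 cells 4 of these 6 genes had a slope with adjusted p under 0.05, against 57.5% of all genes tested. In WT10 cells 2 of the 6 did, against 20.0% of all genes. In MUT3 cells none did, and 0 of the 12644 genes passed (0.0%) although 295 had an unadjusted p under 0.05. On the recovered reads edgeR called 1 gene and DESeq2 8 genes in MUT3 cells. The shares among the 6 genes are close to those of all genes in WT6 and, with so few genes, do not set the group apart. The median slope of the 6 genes was 0.10 in WT6, 0.04 in WT10 and 0.04 in MUT3 cells, beside medians over all genes of 0.0053, -0.0027 and 0.0033.

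MMP1 had a slope of 0.36 ± 0.05 (SE) in WT10 cells (limma, adjusted p = 0.000454) and of 0.15 ± 0.06 in WT6 cells (adjusted p = 0.0325). In MUT3 cells the slope was -0.12 ± 0.06 with adjusted p = 1.00. With each clone fitted alone, the MUT3 slope was called (limma, adjusted p = 9.21e-13) and that of WT6 was not. The slopes of WT10 and MUT3 differed by 0.47 ± 0.08 (adjusted p = 0.00512), which made MMP1 the only one of the 6 genes to pass in this contrast, where 5.62% of all genes did. WT6 and MUT3 differed by 0.27 ± 0.08 (adjusted p = 0.0172), while the difference between WT6 and WT10, -0.21 ± 0.08, was not called (adjusted p = 0.0788). This difference depended on WT6 libraries: it was 0.07 without WT6 at 25 ng/ml (adjusted p = 0.508), and it was called without WT6 at 0, 2.5 or 5 ng/ml (-0.30, -0.20 and -0.23, adjusted p = 0.0271, 0.0493 and 0.0164) and with length and GC trends removed (-0.25, adjusted p = 0.0311). The rise of MMP1 in WT10 rested in part on the highest dose: without the WT10 library at 25 ng/ml the slope was 0.24 with adjusted p = 0.241, and its difference from MUT3 was 0.36 with adjusted p = 0.244. Its differences from MUT3 were also lost without the MUT3 library at 25 ng/ml, at 0.43 for WT10 (adjusted p = 0.407) and 0.22 for WT6 (adjusted p = 0.232), and that of WT6 without untreated WT6, at 0.17 (adjusted p = 0.109). With the RBM47 count in place of dose, neither difference from MUT3 was called, nor was the WT6 slope, while the WT10 slope was. In WT6 the slope was 0.05 without the untreated library (adjusted p = 0.492), 0.14 without that at 1 ng/ml (adjusted p = 0.0702) and 0.43 without that at 25 ng/ml (adjusted p = 0.00149), and it was 0.08 (adjusted p = 0.213) once trends with transcript length and GC content had been removed from each library.

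**Figure D2:**
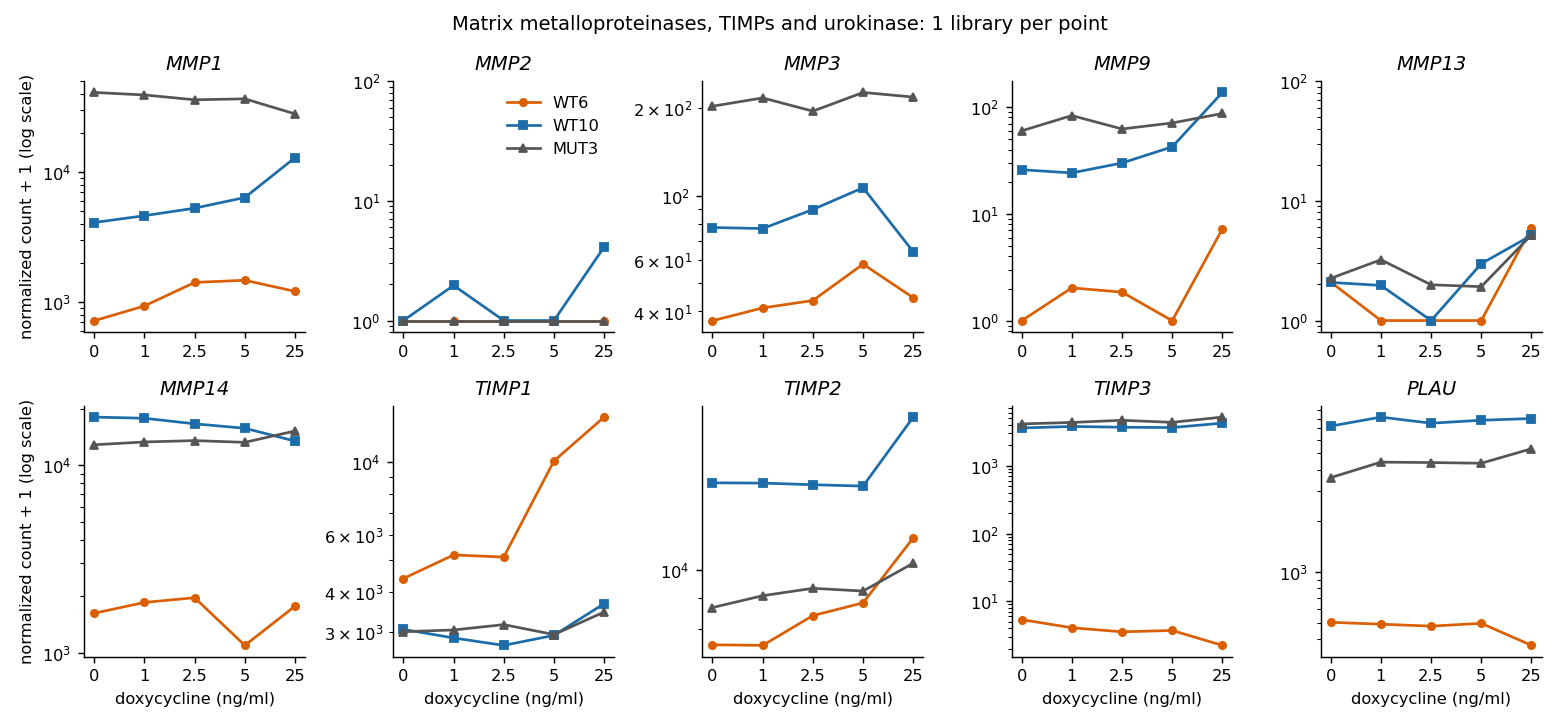
Normalized count plus 1 (log axis, its range set for each gene) against doxycycline in ng/ml (doses evenly spaced) for the 10 genes, 1 library per point, in WT6 (circles), WT10 (squares) and MUT3 (triangles). MMP1 and MMP9 rise in WT10 up to 25 ng/ml, TIMP1 rises in WT6 at 5 and 25 ng/ml, and MMP14 falls at each dose in WT10.

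MMP3, stromelysin 1, has a broad range of matrix substrates and can activate the MMP1 precursor. It lies in the same cluster (chromosome 11, 102706532 to 102714340, minus strand) but was read at a far lower level, with a median per kb of 119 in MUT3, 42.2 in WT10 and 23.4 in WT6 cells. In MUT3 cells its normalized count was 203, 216, 195, 226 and 218 over the doses, in WT10 cells 76.8, 76.2, 88.8, 106 and 63.2, and in WT6 cells 36.2, 40.1, 42.6, 57.2 and 43.6. The order of the clones was thus the same as for MMP1, with no overlap between them. No dose slope of MMP3 was called, with 0.06 ± 0.08 in WT6, -0.04 ± 0.06 in WT10 and 0.02 ± 0.04 in MUT3 cells (adjusted p = 0.479, 0.722 and 1.00). In WT6 both MMP1 and MMP3 were highest at 5 ng/ml, and in WT10 MMP3 was highest at 5 ng/ml and lowest at 25 ng/ml, where MMP1 was highest. Without the WT10 library at 25 ng/ml the MMP3 slope in WT10 was 0.19 (adjusted p = 0.352). The slopes of the 2 genes were not tested against each other. MMP13, collagenase 3, closes the stretch of 166 kb that the 3 genes span and had at most 5 reads in any library. The long noncoding RNA gene WTAPP1 overlaps MMP1 and MMP3 on the opposite strand, and reads from it could not be told apart here, since the sources do not state whether the libraries kept the strand.

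MMP9, gelatinase B, cuts denatured collagen and the collagen of basement membranes. It lies on chromosome 20 from 44637547 to 44645200 (plus strand). In WT10 cells it had 24.9 normalized counts untreated and 23.1, 28.9, 41.3 and 136 at the rising doses, which at 25 ng/ml was 5.46 times the untreated value and rested on 131 reads against 23. In MUT3 cells the values were 58.8, 82.1, 61.3, 69.8 and 85.9, so that the WT10 library at 25 ng/ml was the only one of that clone above the MUT3 range. In WT6 cells MMP9 was close to absent, with 0, 1, 1, 0 and 5 reads, and it therefore missed the minimum of the main fit.

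MMP9 and TIMP3, both near 0 in WT6, were tested in a fit of the 10 WT10 and MUT3 libraries alone, which was added after the data had been seen and covered 13130 genes. The slope of MMP9 in WT10 cells was 0.62 ± 0.07 (limma, adjusted p = 1.44e-05) and in MUT3 cells 0.09 ± 0.06 (adjusted p = 0.915), and the difference was 0.53 ± 0.09 (adjusted p = 0.00124). Without the WT10 library at 25 ng/ml the slope was 0.30 (adjusted p = 0.145) and the difference 0.21 (adjusted p = 0.372), and without the MUT3 library at 25 ng/ml the difference was 0.58 (adjusted p = 0.0596). With the RBM47 count in place of dose, the WT10 slope and the difference were both called. In this fit 5 of the 8 genes tested had a called slope in WT10 cells, against 37.8% of all genes, and 4 of the 8 a called difference from MUT3, against 23.3%. For MUT3 slopes none of the 8 passed, against 0.0762% of all genes.

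MMP14, the membrane-bound collagenase MT1-MMP, lies on chromosome 14 from 23305769 to 23318250 (plus strand, 10 exons). In WT10 cells it went down at every step, from 18010 through 17755, 16583 and 15703 to 13416 normalized counts, or 0.745 times the untreated value. In MUT3 cells it stood at 12822, 13273, 13495, 13210 and 15188, and in WT6 cells at 1622, 1852, 1962, 1093 and 1769. Only the WT6 libraries stood apart, with all 5 below every library of the other clones, while WT10 and MUT3 overlapped. The slope in WT10 cells, -0.10 ± 0.05, was not called in the main fit (adjusted p = 0.220), nor was its difference from MUT3 of -0.14 ± 0.07 (adjusted p = 0.273). In the fit of 10 libraries, both were called, at -0.09 ± 0.01 (adjusted p = 9.04e-05) and -0.14 ± 0.02 (adjusted p = 0.000205). The same happened when a single WT6 library, that at 5 ng/ml with its low count of 1093, was left out of the main fit (adjusted p = 0.00157 and 0.00292), since the spread is shared between clones. The size of the fall was therefore alike in all of these fits and its call was not.

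MMP2, gelatinase A, is made as the precursor that MMP14 activates and lies on chromosome 16 from 55423612 to 55540603 (plus strand). It was not read at all in WT6 and MUT3 cells and had 4 reads in total in WT10 cells (1 at 1 ng/ml, 3 at 25 ng/ml). A count of 0 allows up to 3 reads, so a level of a few normalized counts cannot be told from none at this depth. MMP13 had 5, 11 and 9 reads summed over the 5 libraries of WT6, WT10 and MUT3 cells, respectively, and in each clone its highest normalized count came at 25 ng/ml, with 4 reads. No fold or test is given for either gene.

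TIMP1 is a broad inhibitor of secreted metalloproteinases, and its gene lies on chromosome X from 47441807 to 47446188 (plus strand), overlapping SYN1 on the other strand. In WT6 cells it was 4392, 5191, 5115, 10104 and 13783 in order of dose, and the last value was 3.14 times the first. In WT10 cells it was 3064, 2884, 2736, 2937 and 3676, and in MUT3 cells 3014, 3051, 3169, 2954 and 3465. All WT6 libraries lay above all libraries of the other clones, which overlapped with each other. The slope in WT6 cells was 0.38 ± 0.05 (limma, adjusted p = 1.84e-05), and it exceeded that in MUT3 by 0.34 ± 0.06 (adjusted p = 0.00156) and that in WT10 by 0.32 ± 0.06 (adjusted p = 0.0142). With the RBM47 count in place of dose, neither the WT6 slope (adjusted p = 0.221) nor its differences from MUT3 and WT10 were called. TIMP1 was 5115 at 2.5 ng/ml, where RBM47 was 8094, and 10104 at 5 ng/ml, where RBM47 was 3966. Among the 6 genes TIMP1 was the only one whose slope differed between WT6 and WT10 (14.4% of all genes), and 1 of 3 (with MMP1 and PLAU) between WT6 and MUT3 (38.6%). Without the WT6 library at 25 ng/ml the difference between WT6 and WT10 was 0.34 with adjusted p = 0.0680, and without the untreated WT10 library 0.27 with adjusted p = 0.0919. In WT10 and MUT3 cells the slopes of 0.06 ± 0.04 and 0.04 ± 0.04 were not called (adjusted p = 0.345 and 1.00). In the fit of 10 libraries the WT10 slope, again 0.06, was called (adjusted p = 0.0492), and in the main fit it was -0.03 without WT10 at 25 ng/ml (adjusted p = 0.879).

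TIMP1 has a short transcript of 769 bases, and transcripts of like length moved with it in WT6 cells at the upper doses. Among the 463 genes whose transcripts were at most 20% shorter or 25% longer than that of TIMP1, the median log2 change from untreated in WT6 cells was 0.88 at 5 ng/ml and, for 25 ng/ml, 0.73, whereas TIMP1 changed by 1.20 and 1.65. In WT10 and MUT3 cells the same genes had medians of 0.10 and -0.03 at 25 ng/ml. With trends of length and GC content removed from each library, the slope of TIMP1 in WT6 cells was 0.21 ± 0.02 (adjusted p = 2.48e-07). The rise was therefore smaller after the correction but remained past the threshold.

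**Figure D3:**
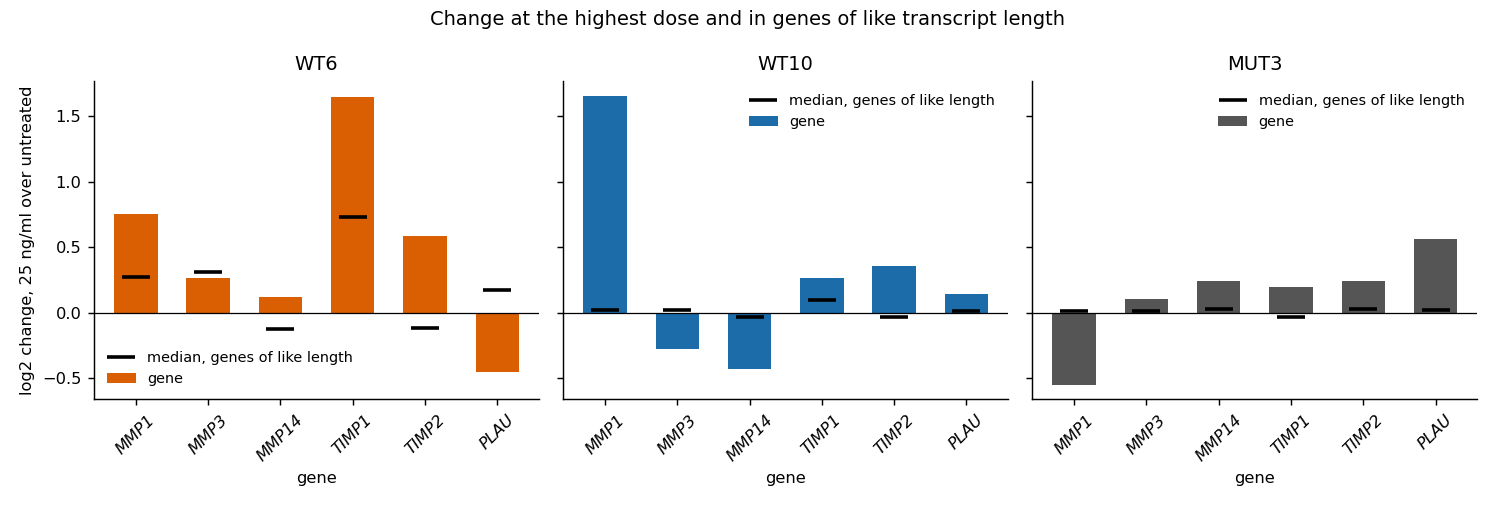
Log2 change from the untreated library to 25 ng/ml in each clone (bars, 1 library pair each, on the log2(normalized count + 1) scale) and the median change of all genes with transcripts of like length (black dashes). In WT6 the dash of TIMP1 stands at 0.73, well above 0, and the TIMP1 bar at 1.65 reaches past it, while in WT10 and MUT3 the dashes stay near 0.

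TIMP2, which blocks several metalloproteinases and also takes part in the activation of the MMP2 precursor by MMP14, lies on chromosome 17 from 76849059 to 76921469 (minus strand). In WT6 cells it was 7529, 7511, 8412, 8830 and 11307, and the slope of 0.13 ± 0.03 was called (limma, adjusted p = 0.000511). In WT10 cells it was level at 13942, 13927, 13841 and 13768 up to 5 ng/ml and then 17902 at 25 ng/ml, with a slope of 0.08 ± 0.03 that just passed (adjusted p = 0.0457). In MUT3 cells it was 8674, 9074, 9333, 9235 and 10268, and the slope of 0.05 ± 0.02 was not called (adjusted p = 1.00). With MUT3 fitted alone it was called (limma, adjusted p = 0.0225). TIMP2 was thus highest at 25 ng/ml in each of the 3 clones, MUT3 included, at 1.28 and 1.18 times untreated in WT10 and MUT3. No pair of clones differed in slope by the test (WT6 minus MUT3 0.08 ± 0.04, adjusted p = 0.0715, WT10 minus MUT3 0.03 ± 0.04, adjusted p = 0.709, WT6 minus WT10 0.06 ± 0.04, adjusted p = 0.266). The WT10 call hung on its last dose: without that library the slope was -0.01 with adjusted p = 0.952. It was also lost, at 0.07 to 0.08, without the library of WT6 at 1 ng/ml, of WT10 at 1 or 2.5 ng/ml, or of MUT3 at any dose. The WT6 slope was 0.10 (adjusted p = 0.0918) without its library at 25 ng/ml. With the RBM47 count in place of dose, neither the WT6 nor the WT10 slope of TIMP2 was called.

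TIMP3 is the family member that stays bound to the matrix and also inhibits ADAM17 and related enzymes. Its gene lies on chromosome 22 from 33197691 to 33259028 (hg19, plus strand) inside SYN3, which runs on the other strand. In WT10 cells it was read at 3608, 3802, 3703, 3662 and 4253 normalized counts and in MUT3 cells at 4144, 4354, 4688, 4371 and 5225. In WT6 cells there were 4, 3, 3, 2 and 1 reads, 13 in all. Pooled over doses, TIMP3 was 1333 times lower in WT6 than in WT10 cells (exact 95% interval of the counts 779 to 2503) and 1614 times lower than in MUT3 cells (944 to 3032). These intervals cover counting error only, and with 1 to 4 reads per WT6 library, near the floor of 3, the folds say little beyond a very large difference. Doxycycline did not bring the gene up in WT6. In the fit of 10 libraries the slopes of 0.04 ± 0.02 in WT10 and 0.07 ± 0.02 in MUT3 were not called (adjusted p = 0.0642 and 0.369), and they did not differ by the test (-0.02 ± 0.03, adjusted p = 0.594). With each clone fitted alone, the MUT3 slope was called and the WT10 slope was not. The TIMP3 promoter printed above held 26 CG dinucleotides, and the downstream start of PLAU, a gene read in every clone, held 24. Methylation was not measured, and a part of the promoter sequence in the clone difference was not tested.

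PLAU lies on chromosome 10 from 75668935 to 75677254 (plus strand, 11 exons). In WT6 cells its normalized counts were 503, 490, 477, 496 and 367, with the low value at the highest dose. In WT10 cells it was 7218, 8156, 7505, 7814 and 7999, and in MUT3 cells 3587, 4427, 4401, 4360 and 5308. The 3 clones did not overlap, and WT10 was highest. The slope was called in WT6 cells, where it was negative (-0.09 ± 0.03, adjusted p = 0.0263), but not in WT10 (0.02 ± 0.03, adjusted p = 0.619) or MUT3 cells (0.10 ± 0.03, adjusted p = 0.754). The MUT3 slope had an unadjusted p of 0.00115, and PLAU reached 1.48 times untreated there at 25 ng/ml. With each clone fitted alone, the MUT3 slope was called (limma, adjusted p = 1.15e-06) and that of WT6 was not. The WT6 slope differed from that of MUT3 by -0.19 ± 0.04 (adjusted p = 0.00331) and not by the test from that of WT10 (-0.11 ± 0.04, adjusted p = 0.0773). Without the WT6 library at 25 ng/ml the WT6 slope was -0.01 (adjusted p = 0.868) and its difference from MUT3 -0.12 (adjusted p = 0.143), and without the MUT3 library at 25 ng/ml that difference was -0.19 (adjusted p = 0.0651). With the RBM47 count in place of dose, neither the WT6 slope nor its difference from MUT3 was called. C10orf55, an antisense gene over PLAU, carried 18.6% to 34.9% of the PLAU count in WT6, 28.0% to 33.8% in WT10 and 28.4% to 30.9% in MUT3 libraries, so reads of the 2 strands may be shared between them. In WT6 the share was 33.1%, 34.9%, 30.4%, 20.6% and 18.6% in order of dose. The C10orf55 count there was 167 untreated and 68.5 at 25 ng/ml, and its slope was not tested.

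**Figure D4:**
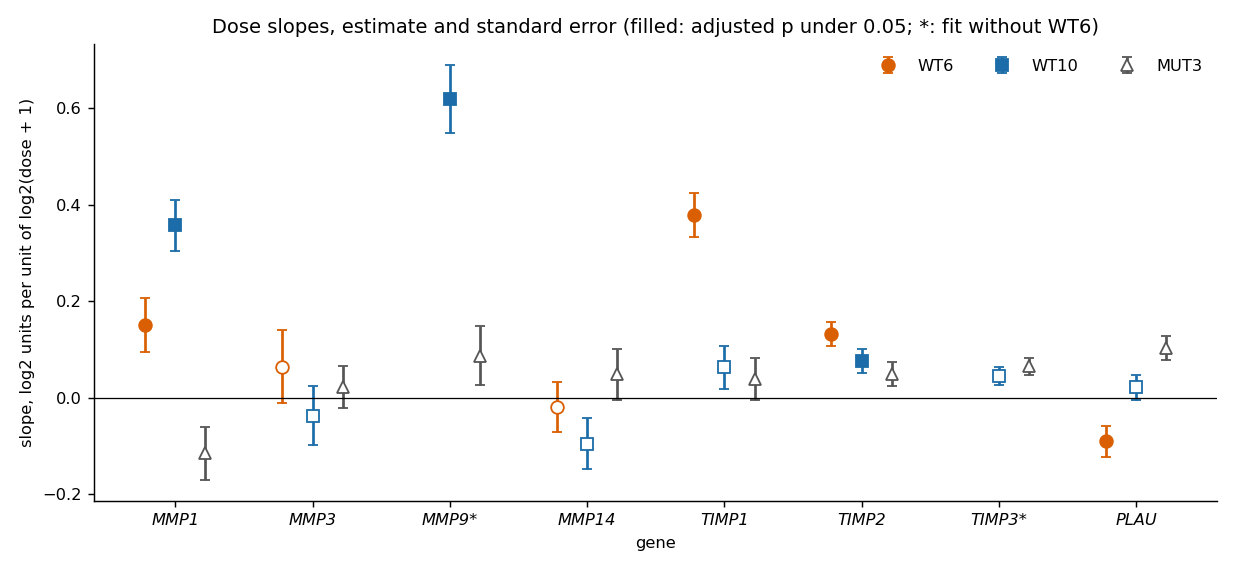
Dose slopes with their standard errors for the 8 genes tested, in log2 units per unit of log2(dose + 1), filled where the adjusted p was under 0.05. MMP9 and TIMP3 (asterisks) come from the fit of WT10 and MUT3 alone. The largest slopes are those of MMP9 (0.62) and MMP1 (0.36) in WT10 and of TIMP1 (0.38) in WT6, and no MUT3 point is filled.

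The clones differed from the start, and most of these differences exceeded the changes with dose. Fitted levels without doxycycline, compared in the same model, differed between WT10 and MUT3 for 5 of the 6 genes, against 28.2% of all genes, and between WT6 and MUT3 and between WT6 and WT10 for 6 of 6, against 61.7% and 59.6%. MMP1 was lower in WT10 than in MUT3 (-3.52 ± 0.20 log2 units, limma, adjusted p = 2.20e-08), and its WT6 level was again lower than that of WT10 (-2.04 ± 0.20, adjusted p = 4.81e-07). MMP3 was lower in WT10 than in MUT3 as well (-1.25 ± 0.19, adjusted p = 0.000213). In contrast, PLAU (0.98 ± 0.09, adjusted p = 4.40e-06) and TIMP2 (0.60 ± 0.09, adjusted p = 0.000209) were higher in WT10 than in MUT3. TIMP1 did not differ by the test between these clones (-0.09 ± 0.16, adjusted p = 0.721). MMP14 was higher in WT10 by 0.55 ± 0.19, but this call (adjusted p = 0.0438) was lost, with adjusted p up to 0.147 and values of 0.51 to 0.59, without any single library of WT10 or MUT3 or without untreated WT6. In the fit of 10 libraries the level of MMP9 was lower in WT10 (-1.93 ± 0.29, adjusted p = 6.96e-05) and so was that of TIMP3 (-0.22 ± 0.07, adjusted p = 0.0146, or 0.0671 without untreated MUT3), among 7 of 8 genes called there and 45.7% of all genes.

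In WT6 cells the fitted level of PLAU relative to WT10 was -3.83 ± 0.11 log2 units (adjusted p = 7.45e-13) and that of MMP14 -3.47 ± 0.19 (adjusted p = 8.83e-10). TIMP1 was the only one of the 6 with a higher level in WT6, by 0.55 ± 0.16 over WT10 (adjusted p = 0.00820) and 0.47 ± 0.16 over MUT3 (adjusted p = 0.0206). Both of these calls were lost without untreated WT6, at 0.43 (adjusted p = 0.0905) and 0.35 (adjusted p = 0.167), and that against MUT3 also without MUT3 at 0 or 25 ng/ml, at 0.49 and 0.42 (adjusted p = 0.0626 and 0.0631). TIMP2 was lower in WT6 than in MUT3 by a small margin (-0.28 ± 0.09, adjusted p = 0.0139, or 0.0617 without untreated MUT3). By the study's methods WT10 and MUT3 share a parental line and WT6 has another, while WT6 and WT10 share the wild type transgene. Each clone is a single one, so clone and transgene cannot be told apart between WT10 and MUT3. Between WT6 and WT10 the same holds for clone and line, and between WT6 and MUT3 for clone, line and transgene. The p-values measure the spread between libraries only.

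The genes that work with the 10 were described from lists covering 40 genes, of which 25 could be tested. In WT6 cells 11 rose and 7 fell, in WT10 cells 8 rose and 1 fell, and in MUT3 cells none was called, where over all genes 57.5%, 20.0% and 0.0% were called in either direction. The lists were not tested against other genes, and the counts of each list below are to be read beside these shares. Of 12 other metalloproteinases 4 were tested. MMP19 rose in both wild type clones, from 95.3 to 402 in WT6 (slope 0.44 ± 0.05, adjusted p = 1.24e-05) and from 142 to 248 in WT10 (0.22 ± 0.05, adjusted p = 0.00790), and MMP24, a membrane-bound enzyme, rose in WT6 from 435 to 1578 (0.45 ± 0.06, adjusted p = 2.50e-05). MMP24 stayed uncalled in WT10 (0.10 ± 0.07, adjusted p = 0.294). Against MUT3 the MMP19 slope was higher in WT6 (0.41 ± 0.07, limma, adjusted p = 0.00143). In WT10 it did not differ from MUT3 by the test (0.19 ± 0.08, adjusted p = 0.151). The median slope of the 4 was 0.32 in WT6 and 0.05 in WT10. Among the 4 other inhibitors, the 2 tested both rose in WT10 (20.0% of all genes called) and 1 of them rose in WT6 (57.5%).

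Of the 8 genes of plasminogen activation described 7 were tested, and 4 rose and 1 fell in WT6 (57.5% of all genes called), while 2 rose and 1 fell in WT10 (20.0%). SERPINB2, an inhibitor of urokinase, climbed at every dose in WT10 cells, from 13858 through 17795, 26578 and 43946 to 60000 (slope 0.48 ± 0.05, adjusted p = 2.02e-05), more steeply than in MUT3 by 0.38 ± 0.07 (adjusted p = 0.00693). In WT6 cells SERPINB2 was low, at 18.5 to 69.8, with a slope of 0.40 ± 0.12 (adjusted p = 0.0127). That slope did not differ from MUT3 by the limma test (0.30 ± 0.13, adjusted p = 0.0821). SERPINF2, the main plasmin inhibitor, rose in WT6 and WT10 at low counts of up to 74.6 (slopes 0.42 ± 0.09 and 0.40 ± 0.08, adjusted p = 0.00166 and 0.00216). PLAUR, the urokinase receptor, went down at every dose in WT10 cells from 8760 to 6683 (slope -0.08 ± 0.03, adjusted p = 0.0269) and was uncalled in WT6 (-0.01 ± 0.03, adjusted p = 0.660). S100A10, part of a plasminogen receptor on the cell surface, rose in WT6 (0.25 ± 0.05, adjusted p = 0.00134). Its log2 change there was 1.18 at 5 ng/ml and 0.96 with 25 ng/ml, beside medians of 0.94 and 0.79 over 348 genes of like transcript length, and its slope was 0.10 (adjusted p = 0.00224) with trends of length and GC content removed.

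Of the 4 genes of protease activation and clearance, all tested, 2 rose and 1 fell in WT6 (57.5% of all genes called) and 2 rose in WT10 (20.0%). PCSK6, a proprotein convertase, moved in opposite directions, with a slope of -0.12 ± 0.03 in WT6 (adjusted p = 0.00774) and 0.46 ± 0.10 in WT10 (adjusted p = 0.00428), the latter at counts that went from 6.49 to 30.05. The WT6 slope did not differ from MUT3 by the limma test (0.01 ± 0.09, adjusted p = 0.958). That of WT10 did (0.59 ± 0.13, adjusted p = 0.0188), though not without WT10 at 25 ng/ml (0.36, adjusted p = 0.518). The call was also lost without MUT3 at 0 or 25 ng/ml (0.56 and 0.69, adjusted p = 0.0827 and 0.379). LRP1, an endocytic receptor that clears proteases, rose in WT6 and WT10 (0.29 ± 0.09 and 0.19 ± 0.05, adjusted p = 0.0148 and 0.0175), and in WT10 it reached 2554 at 25 ng/ml against 1292 to 1377 before. Without the 25 ng/ml library of the clone, its slope was -0.05 in WT6 and -0.03 in WT10 (adjusted p = 0.849 and 0.852). Against MUT3 the LRP1 slope was higher in WT6 (0.28 ± 0.11, limma, adjusted p = 0.0476) and not by the test in WT10 (0.19 ± 0.07, adjusted p = 0.149). Of 12 ADAM and ADAMTS proteases 8 were tested, and the median slope in WT6 was -0.11, with 2 rising and 5 falling, and in WT10 1 rose and none fell, beside the same shares of 57.5% and 20.0%. ADAM10, a membrane sheddase, fell in WT6 (-0.24 ± 0.06, adjusted p = 0.00265), with 714 and 785 counts at the 2 upper doses against 1411 to 1586 below them. Its log2 change there was -1.08 at 5 ng/ml and -0.94 at 25 ng/ml. Over 598 genes of like transcript length the medians were -0.46 and -0.50, so long transcripts fell in WT6 as well. For ADAM19 and ADAMTS9 such medians in WT6 were also below 0 at 25 ng/ml (-0.40 and -0.46). ADAM19 rose in WT6 (0.21 ± 0.04, adjusted p = 0.000453), and ADAMTS9, a secreted protease that cuts proteoglycans, rose in WT6 and WT10 (0.18 ± 0.03 and 0.26 ± 0.03, adjusted p = 0.000172 and 0.000152). The ADAMTS9 slope exceeded that of MUT3 in WT10 (0.22 ± 0.06, limma, adjusted p = 0.0378) and not by the test in WT6 (0.14 ± 0.05, adjusted p = 0.0559). The WT10 difference was not called without MUT3 at any 1 dose. It was also lost without WT10 at 0, 2.5, 5 or 25 ng/ml (adjusted p = 0.0753, 0.0533, 0.0528 and 0.316) or WT6 at 1 ng/ml (adjusted p = 0.0506).

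Several of these calls rested on the library at 25 ng/ml. Without it, the WT6 slopes of SERPINB2 (0.05, adjusted p = 0.885), SERPINF2 (0.26, adjusted p = 0.315), ADAM19 (0.17, adjusted p = 0.1003) and ADAMTS9 (0.11, adjusted p = 0.103) were not called. In WT10 the same held for MMP19 (0.14, adjusted p = 0.543), PCSK6 (0.23, adjusted p = 0.642), SERPINF2 (0.27, adjusted p = 0.439), ADAMTS9 (0.25, adjusted p = 0.134) and PLAUR (-0.11, adjusted p = 0.283). PLAUR in WT10 was also lost without that clone's library at 0 or 1 ng/ml (adjusted p = 0.119 and 0.0668), and PCSK6 in WT6 without its untreated library (adjusted p = 0.0630). The steeper slope of SERPINB2 in WT10 than in MUT3 was 0.54 without WT10 at 25 ng/ml (adjusted p = 0.0669) and 0.40 without MUT3 at 25 ng/ml (adjusted p = 0.379).

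With length and GC trends taken out of each library, an alternative added after seeing the data for these related genes, some WT6 slopes changed. That of SERPINB2 was not called (0.33, adjusted p = 0.110), that of PLAUR was (-0.15, adjusted p = 2.33e-06), those of ADAM10 (-0.11, adjusted p = 0.0300) and PCSK6 (-0.07, adjusted p = 0.0119) were smaller and that of ADAMTS9 (0.29, adjusted p = 1.76e-07) was larger. In WT10 the slope of ADAM19 was then called (0.05, adjusted p = 0.0243).

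**Figure D5:**
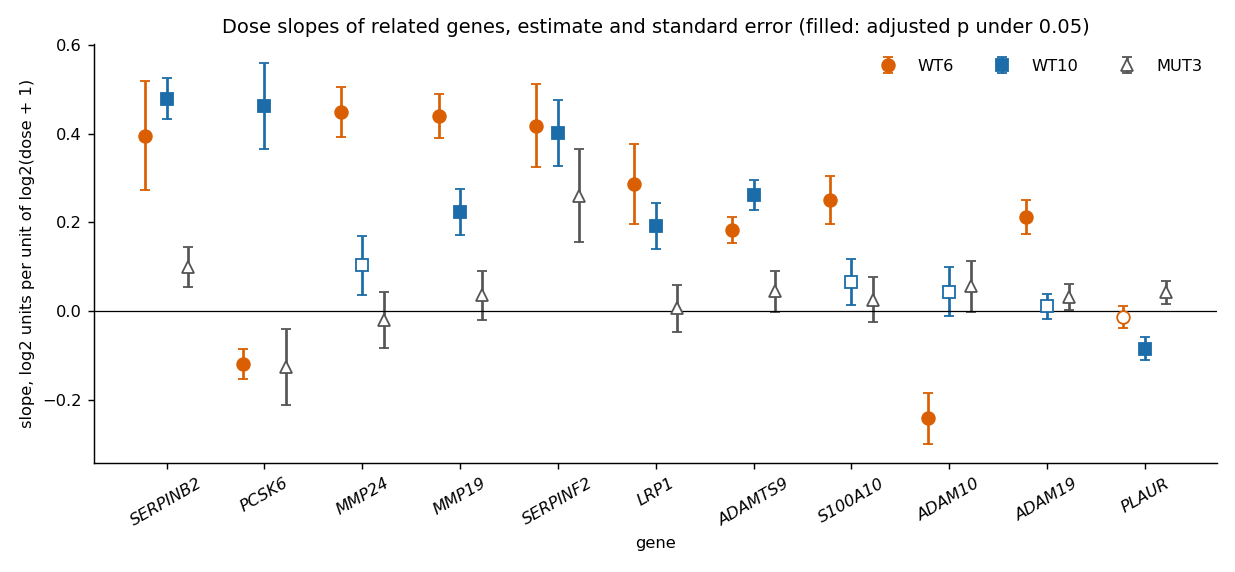
Dose slopes with standard errors for 11 related genes, in log2 units per unit of log2(dose + 1), in WT6 (circles), WT10 (squares) and MUT3 (triangles), filled where the adjusted p was under 0.05. SERPINB2, MMP19, SERPINF2, LRP1 and ADAMTS9 are filled above 0 in both wild type clones, and PCSK6 lies on opposite sides of 0 in them.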

How the data were processed

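Poly(A) RNA of 15 libraries was sequenced on an Illumina HiSeq. By the study's methods the authors mapped reads to hg19 with STAR. Reads per gene were counted with HTSeq at its default settings (version 0.5.4 in the submitters' processing notes). Whether the libraries kept the strand, and which gene annotation was used, are not given in the sources used here. The deposited signal values are counts divided by DESeq size factors, and 100% of them were whole multiples of 1 read (tolerance 0.01), so reads were recovered. The 5 HTSeq tallies were left out; 56.5% to 59.6% of reads had no feature.

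Dose slopes per clone were fitted with limma 3.58.1 (R 4.3.3) on log2(value + 1), pseudocount 1, with precision weights, for genes with a mean of at least 10 in each clone, and p-values were adjusted by Benjamini-Hochberg at 0.05. Folds on this scale understate changes of low genes. Differences of slopes and of fitted untreated levels came from the same fit. Precision was limited by 14955172 to 44771871 reads per library. Nothing says that libraries of a clone are independent cultures, so p-values measure the spread between libraries around the dose trend. Alternatives used edgeR 4.0.16 and DESeq2 1.42.0 on recovered reads. Gene positions were from GENCODE 44 on hg19 and promoters from RefSeq on GRCh38.p14. Levels per kb used GENCODE transcript lengths. The script was tested on simulated data. The members and lists were chosen with earlier results of these data known. Related genes were named by their largest called slopes, plus PLAUR. The other list genes enter as counts. 1 gene was left out of the lists and of their counts and is not reported here.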

Additional observations from a re-analysis of the deposited data

Results flagged for a closer look

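Some dose slopes differed between clones by the limma test of the difference itself. The MMP1 slope was higher in WT10 than in MUT3 (difference 0.47) and in WT6 than in MUT3 (0.27), with a slope below 0 in MUT3. TIMP1 had a higher slope in WT6 than in MUT3 (0.34) and than in WT10 (0.32). PLAU had a lower slope in WT6 than in MUT3 (-0.19). With the RBM47 count in place of dose, none of these differences was called. In the fit of WT10 and MUT3 alone MMP9 had a higher slope in WT10 (0.53). MMP14 and PLAU, not called for these clones with all 15 libraries, had lower slopes in WT10 than in MUT3 in that fit (-0.14 and -0.08). Each clone is a single one, so these are differences between clones, and the transgene cannot be told apart from the clone.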

How the results depend on the processing

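Of 1682 alternative values for 62 results on single genes, 1549 kept direction and side of the threshold, 73 lost the call, 31 gained it, 27 changed sign with no call either way (for MMP1, MMP3, MMP14, TIMP1, TIMP2 and TIMP3) and 2 changed the sign of a called value: the TIMP2 slope in WT10 was -0.0072 both without the WT10 library at 25 ng/ml and without that dose in all clones (-0.0072 to 0.10 over the libraries left out in turn). The causes were not tested. Of the 6 genes, called slopes numbered 4 in WT6 (0 with the RBM47 count in place of dose, 2 with each clone fitted alone, 2 to 4 without 1 library), 2 in WT10 (1 without precision weights, 1 by dose rank, 1 with the RBM47 count, 0 without 25 ng/ml, 5 of 8 with WT10 and MUT3 only, 0 to 3 without 1 library) and 0 in MUT3 (4 with each clone fitted alone, where 176 of 12644 genes were called). Called differences numbered 1 for WT10 and MUT3 (2 with a filter on the overall mean, 2 without filter, 0 with the RBM47 count, 0 without 25 ng/ml, 4 of 8 with these clones only, 0 to 2 without 1 library), 3 for WT6 and MUT3 (0 with the RBM47 count, 1 without 25 ng/ml, 1 to 4 without 1 library) and 1 for WT6 and WT10 (0 with linear dose, 0 with the RBM47 count, 3 with length and GC trends removed, 0 without 25 ng/ml, 0 to 4 without 1 library). Level differences kept 4 to 6 calls without 1 library. Of the 6 genes, the 4 called in MUT3 with each clone fitted alone were MMP1, MMP14, TIMP2 and PLAU. The filter alternatives and the fit of 10 libraries test other numbers of genes. The share of all genes called for a WT10 slope was 20.0% in the main fit and 37.8% in the fit of 10 libraries. For most other alternatives that share is not given here, so the counts above are not a result about these genes in particular. No paired analysis was possible because each clone and dose has 1 library.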
